A study of Mus with 8 samples.

Results

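The 39 genes described here are interferon-stimulated genes of the mouse, named from knowledge of the interferon response and found on the array through the RefSeq accession of each probe. Of these, 37 were matched to a probe and measured, among 22911 genes on the array and 16068 genes that were bright enough to be tested. For Mx1 and Mx2, which encode antiviral dynamin-like GTPases, no probe was matched through the gene table used, and they have no value here. The measured genes were divided by the interferon they are typical of: 26 genes typical of type I interferon and 8 genes typical of gamma interferon (the Gbp genes, Igtp and the Irgm genes). Another 3 genes, Irf1, Irf8 and Iigp1, were kept apart and labelled either interferon. Which interferon induces each of them was not tested.

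The samples were 8 whole tumours, grown under the skin of mice after transplantation of Pan02, a pancreatic cancer line of B6 origin. The 4 Control hosts were wild type and the 4 Mutant hosts were Ext1 flox/flox; S100a4-Cre, so that Ext1, which encodes a polymerase of heparan sulfate, is deleted in cells of the host that express Cre. S100a4 is active in fibroblasts and also in other stromal and immune cells, and the Pan02 cells themselves carry no such deletion in either group. All hosts are labelled B6, and tumours were taken 36 to 40 days after transplantation. Their age and sex were not given in the sources used here.

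Interferons are secreted proteins that cells release on sensing viral or damaged nucleic acid (type I) or that activated T cells and natural killer cells release (gamma). Type I interferon binds the Ifnar1 and Ifnar2 receptor chains and acts through a complex that holds Stat2 and Irf9, which switches on antiviral genes such as the Ifit, Oas and Isg genes. Gamma interferon binds Ifngr1 and Ifngr2 and acts without Stat2 and Irf9 to switch on Irf1 and the interferon-inducible GTPases of the Gbp and Irg families. The programmes overlap, and in a tumour they can be active in cancer cells, stroma and infiltrating immune cells alike.

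Levels are log2 processed intensities relative to the 75th percentile of each array, so a level of 1 is 2-fold above that percentile, and a difference is Mutant minus Control on the same scale. Of the members, 36 were well above background on all 8 arrays and Oas3 on 7. Over the arrays 61.5% to 67.2% of probes were well above background and none were saturated. The number of arrays limits the precision. Ext1 itself had a level of 3.04, 3.60, 3.64 and 2.02 in Controls 1 to 4 and 2.93, 3.00, 3.41 and 3.24 in Mutants 1 to 4, so the groups overlapped. Whole tumours also hold the transplanted cells, whose Ext1 is intact, and whether the probe lies in the deleted part is not known here. Of 6 epithelial carcinoma markers, 5 were measured, while Epcam was well above background on no array. All 5 read lower in Mutant tumours, with a median difference of -0.53, but for each the groups overlapped and Control 4 was the highest tumour. Krt8 and Krt18, 2 of the 5, had an unadjusted p under 0.05 in limma, beside 2.91% of all genes. Among the tumours in row 1 of the slide, Krt19, Krt7 and Cdh1 read higher in Mutant tumours (0.32, 0.05 and 0.20) and Krt8 and Krt18 lower. Among those in row 2 all 5 read lower, with differences from -1.84 (Cdh1) to -0.50 (Krt18).

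**Figure D1:**
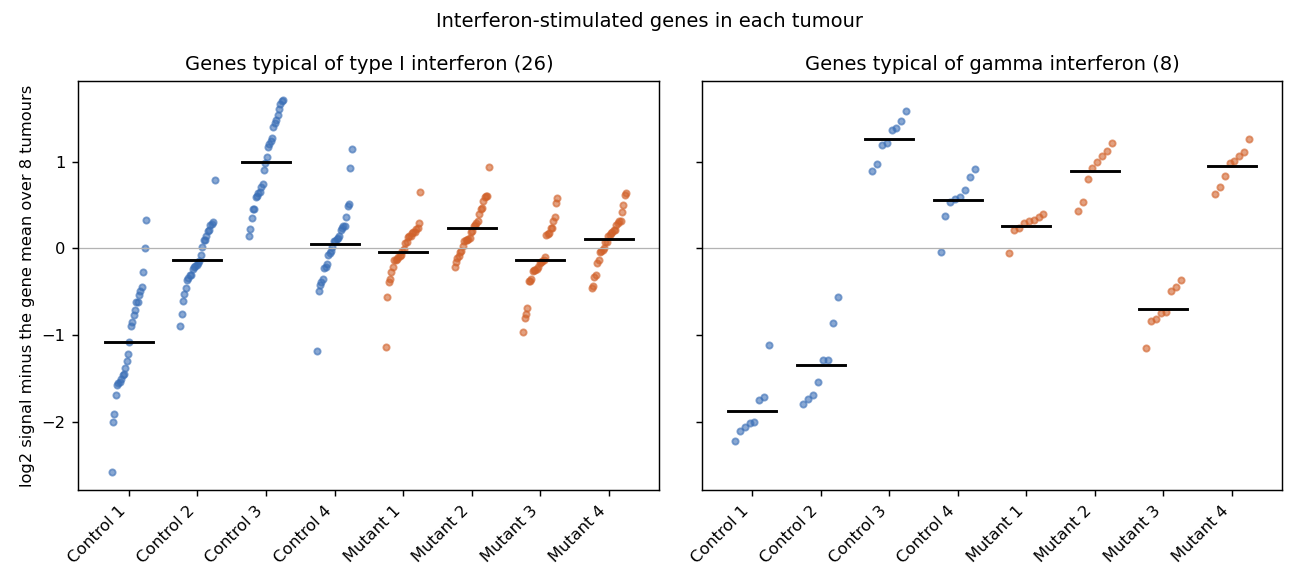
Log2 signal of each gene in each tumour, as the difference from the gene's mean over the 8 tumours, for the 26 type I genes (left) and the 8 gamma genes (right). Each point is 1 gene, points are blue for Control and orange for Mutant tumours, and black bars are class means; all gamma points of Controls 1 and 2 lie below 0, while type I means run from -1.08 in Control 1 to 1.00 in Control 3.

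The interferon-stimulated genes differed widely from tumour to tumour, most of all among the Control hosts, and by their medians less between the group means. Control 3 was the highest tumour for 32 of 37 genes, against 25.3% of all genes tested, and Control 1 was the lowest for 30 of 37, against 11.1% of all genes. A span of at least 2 on the log2 scale between the highest and lowest tumour was seen for 25 of 37 members and for 15.2% of all genes. The median SD within a group was 0.78 for members and 0.27 for all genes, and the members' median difference between the groups was 0.16. By class, that median difference was 0.08 for the type I genes and 0.74 for the gamma genes. The gamma genes had a median SD within a group of 1.30. Within the groups, the SD was larger among Control than among Mutant tumours for 35 of 37 members, beside 79.7% of all genes.

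Among the genes typical of gamma interferon, the guanylate-binding proteins are large GTPases that attack the membranes of vacuoles and bacteria inside cells. Gbp2 had a level of 1.97, 2.19, 5.21 and 4.91 in Controls 1 to 4 and 4.29, 5.21, 3.18 and 4.98 in Mutants 1 to 4. Gbp5, which also promotes inflammasome assembly, had a level of -1.73, -1.27, 1.66 and 0.81 in Controls 1 to 4 and 0.64, 1.27, -0.57 and 1.39 in Mutants 1 to 4. Controls 1 and 2 were the lowest tumours for both genes, Mutant 3 was the lowest of the Mutant tumours, and the groups overlapped. The highest tumour exceeded the lowest 9.43-fold for Gbp2 and 10.5-fold for Gbp5.

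The other Gbp genes had the same arrangement. Gbp3 had a level of 0.25, 1.18, 3.94 and 3.15 in Controls 1 to 4 and 2.81, 2.90, 2.02 and 3.54 in Mutants 1 to 4. Gbp6 had a level of -1.59, -1.22, 1.88 and 1.33 in Controls 1 to 4 and 0.91, 1.64, -0.64 and 1.78 in Mutants 1 to 4. Control 3 was again the highest tumour for both, and Controls 1 and 2 were below every Mutant tumour. Gbp7 had a level of -1.94, -1.05, 0.71 and 0.19 in Controls 1 to 4 and 0.13, 0.62, -0.68 and 0.52 in Mutants 1 to 4, the narrowest span of the Gbp genes at 6.28-fold.

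Igtp, Irgm1 and Irgm2 are immunity-related GTPases that regulate the loading of effector GTPases such as Iigp1 onto parasite vacuoles. Igtp had a level of 1.95, 2.32, 5.61 and 4.61 in Controls 1 to 4 and 4.25, 5.09, 3.28 and 5.03 in Mutants 1 to 4. Irgm2 had a level of 1.40, 1.84, 4.32 and 3.70 in Controls 1 to 4 and 3.33, 4.05, 2.38 and 3.96 in Mutants 1 to 4. Both genes were lowest in Controls 1 and 2 and highest in Control 3, a span of 12.6-fold for Igtp and 7.56-fold for Irgm2. Irgm1 had a narrower span of 4.24-fold with the same lowest and highest tumours. Irgm1 and Irgm2 are shown because they complete the class and were chosen after their values were seen.

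Controls 1 and 2 were the lowest pair of the 8 tumours for all 8 gamma genes, for 5 of 26 type I genes and for 4.33% of all genes. Controls 3 and 4 both lay above Controls 1 and 2 for all 8 gamma genes, for 16 of 26 type I genes and for 15.8% of all genes. Mutant 3 was the lowest Mutant tumour for all 8 gamma genes, for 14 of 26 type I genes and for 27.2% of all genes.

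Of the genes kept apart from both classes, Iigp1 had the widest span, 15.4-fold, with a level of 1.54, 2.29, 5.48 and 4.77 in Controls 1 to 4 and 4.23, 5.19, 3.57 and 4.85 in Mutants 1 to 4. Irf1, a transcription factor through which gamma interferon acts on its later targets, had a level of 4.48, 4.51, 5.28 and 4.91 in Controls 1 to 4 and 4.94, 5.08, 4.52 and 5.29 in Mutants 1 to 4. Irf8, a transcription factor of myeloid and B cells, had a level of 1.85, 1.69, 2.27 and 2.59 in Controls 1 to 4 and 2.83, 2.36, 1.18 and 2.60 in Mutants 1 to 4. Controls 1 and 2 and Mutant 3 were the 3 lowest tumours for each of these genes, as they were for the gamma genes, but Irf1 spanned only 1.76-fold and Irf8 was lowest in Mutant 3.

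The type I genes were less uniform. Of the 4 sensors of nucleic acid, Ddx58 and Ifih1 detect viral RNA in the cytosol, Dhx58 modulates them, and Zbp1 binds Z-form nucleic acid and can start necroptosis. Zbp1 had a level of 0.40, 0.72, 2.79 and 1.83 in Controls 1 to 4 and 1.84, 2.22, 1.24 and 1.88 in Mutants 1 to 4, lowest in Controls 1 and 2 as the gamma genes were. Ifih1 was highest in Control 4, at -0.71, and lowest in Control 1, at -2.73. All 4 sensors had a difference above 0, with a median of 0.11, but within row 2 of the slide all 4 lay below 0, with a median of -0.52. For Ddx58 the difference was 0.05 with the probe used and -0.13 to -0.09 with its other probes.

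Among the transcription factors of the type I response, Irf7, which drives the interferon alpha genes, had a level of 2.02, 3.79, 4.82 and 3.81 in Controls 1 to 4 and 3.19, 3.67, 3.74 and 3.56 in Mutants 1 to 4. Control 1 stood low and Control 3 high, while the Mutant tumours had an SD of 0.25 against 1.16 in Control. Stat2 and Irf9, which act together in the type I response, spanned 2.79-fold and 2.11-fold over the tumours. Usp18, which removes Isg15 from proteins and dampens the type I receptor, had a level of -2.30, -0.57, 0.83 and -0.82 in Controls 1 to 4 and -1.40, -0.81, -0.68 and -0.97 in Mutants 1 to 4. Its difference was -0.25, inside the spread of the Control tumours. Irf7, Stat2, Irf9, Usp18 and Ifih1 were named after their values were seen.

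Isg15 is a ubiquitin-like protein that is attached to other proteins during the interferon response. It had a level of 1.83, 3.72, 5.24 and 3.13 in Controls 1 to 4 and 3.43, 3.63, 3.35 and 3.83 in Mutants 1 to 4. Control 3 was 10.6-fold above Control 1, whereas the 4 Mutant tumours were close together, with an SD of 0.21 against 1.41 in Control. Ifit1, which binds viral RNA that lacks the host cap, had a level of -1.63, 0.09, 1.35 and -0.40 in Controls 1 to 4 and -0.19, 0.04, 0.18 and 0.14 in Mutants 1 to 4. Isg15 and Ifit1 were named after their values were seen.

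Ifit3, a partner of Ifit1, had a level of 0.67, 2.11, 3.17 and 2.11 in Controls 1 to 4 and 2.33, 2.48, 2.43 and 2.19 in Mutants 1 to 4. The same tumours were highest and lowest as for Ifit1. Ifit2, named after its values were seen, stood apart: its level was 0.10, -0.14, -0.0049 and -0.72 in Controls 1 to 4 and -0.36, -0.34, 0.29 and -0.68 in Mutants 1 to 4. Its highest tumour was Mutant 3 and its lowest was Control 4, a span of 2.02-fold.

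The Oas enzymes make short oligoadenylates that activate RNase L, which degrades RNA. Oas2 had the widest span of any member, 19.4-fold, with a level of -1.60, 0.45, 2.68 and 2.13 in Controls 1 to 4 and 0.89, 1.92, 0.18 and 1.19 in Mutants 1 to 4. Oas3 had a level of -6.17, -4.30, -2.55 and -3.80 in Controls 1 to 4 and -4.01, -3.84, -4.40 and -4.20 in Mutants 1 to 4. Control 1 was lowest and Control 3 highest for both, and Oas3 was not well above background in Control 1. The related Oasl2 had a level of 1.13, 2.29, 3.41 and 2.33 in Controls 1 to 4 and 2.68, 3.05, 2.16 and 3.01 in Mutants 1 to 4. Oasl1, which restrains the translation of Irf7, had a level of 0.56, 1.12, 2.94 and 1.73 in Controls 1 to 4 and 1.25, 1.44, 1.64 and 1.03 in Mutants 1 to 4.

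Isg20, an exonuclease that degrades single-stranded RNA, had the smallest p of the members. Its level was 3.43, 3.70, 4.07 and 3.21 in Controls 1 to 4 and 3.49, 3.21, 3.16 and 3.11 in Mutants 1 to 4. The groups overlapped, and its difference of -0.36 (SE 0.20) had an unadjusted p of 0.104 in limma and 0.143 in the exact permutation test, both two-sided (n = 4 per group). Ifi44 had the largest type I difference, 0.56 (SE 0.55), with a level of -2.31, -0.91, 0.26 and -2.20 in Controls 1 to 4 and -0.78, -1.10, -0.69 and -0.37 in Mutants 1 to 4. The highest Control tumour for Ifi44 lay above every Mutant tumour and Controls 1 and 4 lay below them.

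Bst2, known as tetherin, holds budding virus particles on the cell surface. Its level was 3.25, 3.19, 5.0 and 3.94 in Controls 1 to 4 and 3.99, 4.05, 2.82 and 4.11 in Mutants 1 to 4, so that Mutant 3 was the lowest tumour of all. Xaf1, which opposes the apoptosis inhibitor XIAP, had a level of -0.23, 1.12, 2.37 and 1.41 in Controls 1 to 4 and 1.61, 1.59, 1.06 and 1.61 in Mutants 1 to 4. Trim30a, which restrains Toll-like receptor signalling, had a level of -0.55, -0.60, 0.50 and 0.64 in Controls 1 to 4 and 0.80, 0.27, -0.61 and 0.77 in Mutants 1 to 4. Controls 1 and 2 and Mutant 3 were its low tumours, as for the gamma genes. Ifi35 had the narrow span of 1.87-fold around a Control mean of 3.68 and a Mutant mean of 3.77.

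The comparison of the host genotypes asks whether loss of Ext1 in S100a4-expressing host cells goes with a different interferon response in the tumour. No member differed between the groups at an adjusted p under 0.05 in limma (0 of 37, adjusted over all 16068 genes), and neither did any other gene tested (0%). At an unadjusted p under 0.05 in limma there were 0 of 37 members beside 2.91% of all genes. None of the members had groups that did not overlap, beside 1.42% of all genes, and none differed by 2-fold or more, beside 2.79%. The Mutant mean was above the Control mean for 29 of 37 members, with a median difference of 0.16, beside 52.4% of all genes with a median of 0.01. The smallest p that the exact permutation test allows with 4 against 4 tumours is 0.0286.

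For the 8 gamma genes every difference was above 0, with a median of 0.74 and a range from 0.38 to 0.84. Gbp2 had the largest, 0.84 (SE 0.86), from a Control mean of 3.57 ± 1.73 to a Mutant mean of 4.41 ± 0.91 (SD, n = 4 each). Its unadjusted p was 0.356 in limma and 0.343 in the exact permutation test, both two-sided. Gbp6 differed by 0.82 (SE 0.92), Gbp5 by 0.82 (SE 0.82), Igtp by 0.79 (SE 0.87), Gbp3 by 0.69 (SE 0.80) and Gbp7 by 0.67 (SE 0.59). Each of these differences was smaller than the SD among Control tumours, which had a median of 1.67 over the 8 genes. Gbp7 had the smallest p of the class, 0.292 unadjusted in limma. Iigp1 differed by 0.94 (SE 0.89), the largest of all members, with an exact permutation p of 0.371.

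For the 26 type I genes 18 differences were above 0 and 8 below, with a median of 0.08 and a range from -0.36 to 0.56. The effectors gave 12 above 0 and 6 below, with a median of 0.09, and the transcription factors, counted here with Irf1 and Irf8, 4 above and 1 below, with a median of 0.08. Oasl2 differed by 0.43 (SE 0.46), Zbp1 by 0.36 (SE 0.52), Ifit3 by 0.34 (SE 0.46), Trim30a by 0.31 (SE 0.42) and Xaf1 by 0.30 (SE 0.49). Isg15, with 0.08 (SE 0.63), and Oas2, with 0.13 (SE 0.91), had group means that nearly coincided while their Control tumours were far apart.

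**Figure D2:**
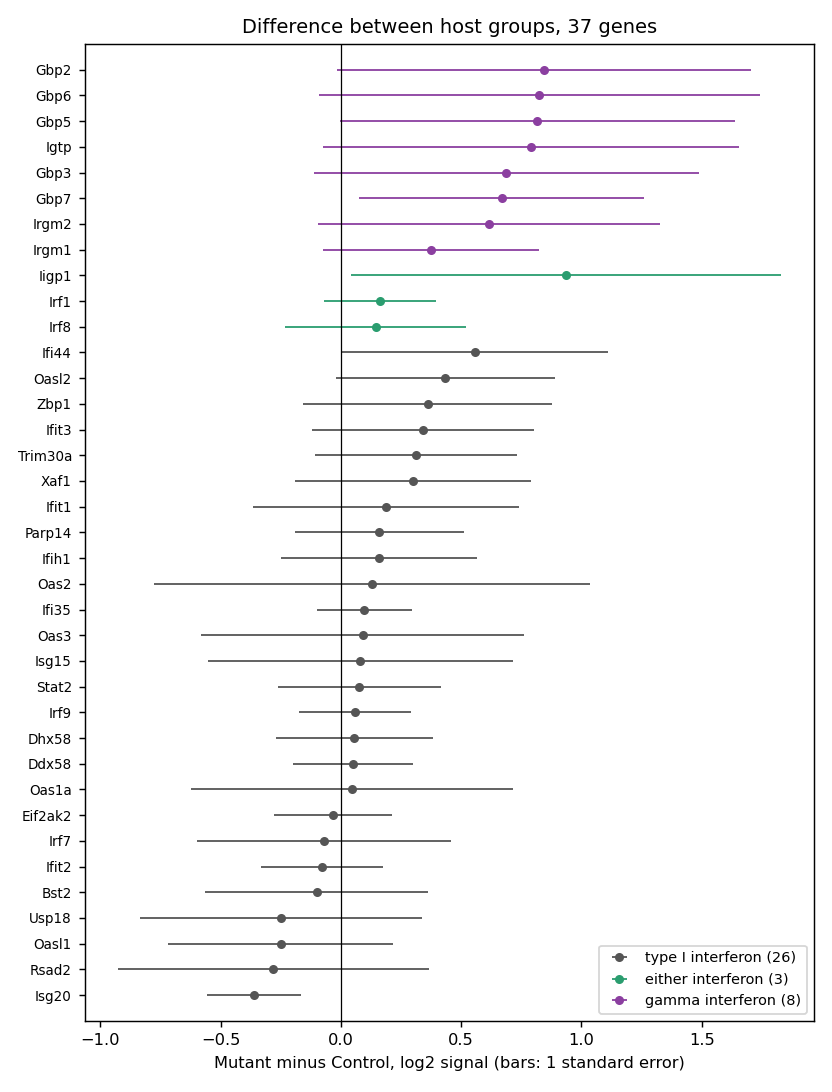
Difference between Mutant and Control hosts for each of the 37 genes (log2, Mutant minus Control; points with 1 SE bars from limma, n = 4 per group), ordered within each class and coloured by class. The 8 gamma genes lie between 0.38 and 0.84, and the 26 type I genes lie between -0.36 and 0.56.

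The 8 arrays lay on 1 slide in 2 rows, and each row held 2 tumours of each group. Within row 1 the Mutant mean was above the Control mean for 33 of 37 members, beside 49.3% of all genes, and within row 2 for 3 of 37, beside 50.2%. The median difference of the gamma genes was 2.30 in row 1 and -0.83 in row 2, and that of the type I genes was 0.71 in row 1 and -0.51 in row 2. For Igtp the difference was 2.54 in row 1 and -0.96 in row 2, and for Isg15 0.76 and -0.59. Row 1 held Controls 1 and 2, the low Control tumours, and row 2 held Controls 3 and 4 and Mutant 3. The direction of the group difference therefore did not hold within both rows. In a limma fit with a mean for each group in each row, added after seeing the data, no member passed an adjusted p under 0.05 within row 1, within row 2 or for the difference between the rows, beside 0% of all genes each time. At an unadjusted p under 0.05 there were 11 of 37 members within row 1 (7 of 8 gamma genes and 3 of 26 type I genes), beside 5.48% of all genes. Within row 2 there were 0 of 37, beside 7.9% of all genes. For the difference between the rows there were 17 of 37 (7 gamma and 9 type I genes), beside 10.3% of all genes. Gbp2 had 2.67 (SE 0.62) in row 1 and -0.98 (SE 0.62) in row 2, which differed by 3.65 (SE 0.87) with an unadjusted p of 0.00613 and an adjusted p of 0.355 in limma. A difference between rows and one between the individual tumours cannot be told apart. Leaving out Control 1 took the gamma median to 0.21 and the type I median to -0.17, and leaving out Control 3 took them to 1.34 and 0.33. Without Control 2 the gamma median was 0.38 and the type I median 0.05. Without Mutant 2 the type I median was -0.01, and without Mutant 3 it was 0.16.

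To compare the classes within each tumour, a level was taken as the mean, over a class, of each gene's difference from its mean over the 8 tumours. The type I level was -1.08, -0.13, 1.00 and 0.05 in Controls 1 to 4 and -0.04, 0.23, -0.13 and 0.10 in Mutants 1 to 4. The gamma level was -1.88, -1.35, 1.26 and 0.56 in Controls 1 to 4 and 0.26, 0.89, -0.70 and 0.95 in Mutants 1 to 4. Control 2 and Mutant 3 were low in the gamma level and only slightly below 0 in the type I level. They and Control 1 were the lowest tumours in both levels, and Controls 1 and 3 were at the ends of both. The highest tumour exceeded the lowest 4.23-fold for the type I level and 8.81-fold for the gamma level.

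The gamma level minus the type I level was -0.79, -1.22, 0.26 and 0.50 in Controls 1 to 4 and 0.31, 0.66, -0.57 and 0.85 in Mutants 1 to 4. Its mean was -0.31 ± 0.83 in Control and 0.31 ± 0.63 among Mutants (mean ± SD, n = 4 each); the means differed by 0.62 and the groups overlapped. Within row 1 this difference was 1.49 and within row 2 it was -0.24. Leaving out 1 tumour gave 0.32 (without Control 2) to 0.92 (without Mutant 3). By family, the highest tumour exceeded the lowest 3.46-fold for the Ifit genes, 9.22-fold for the Oas and Oasl genes, 9.79-fold for the Gbp genes and 7.40-fold for Igtp and the Irgm genes. The Oas and Oasl genes, though typical of type I interferon, thus spanned as much as the Gbp genes, but their group difference was 0.09 and that of the Gbp genes 0.77.

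**Figure D3:**
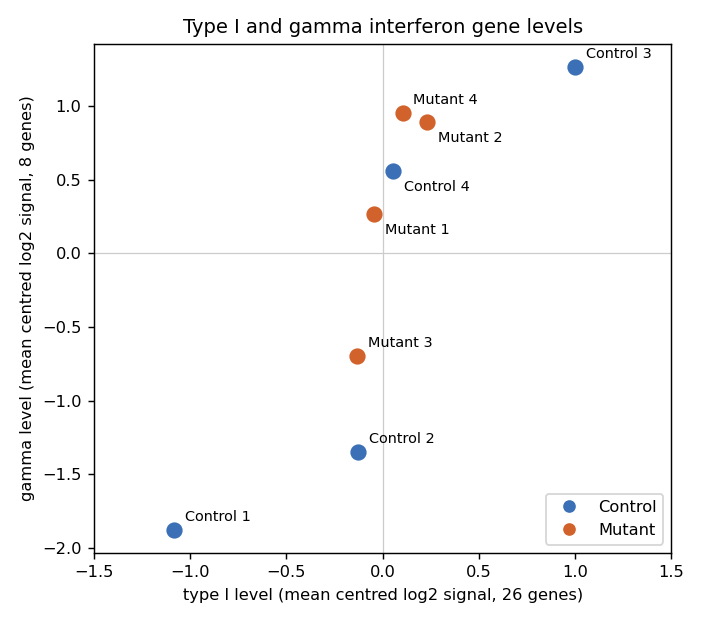
Type I level (horizontal axis) and gamma level (vertical axis) of each tumour, both as mean log2 difference from the gene's mean over 8 tumours; each point is 1 tumour, coloured by host group. Control 1 (-1.08, -1.88) and Control 3 (1.00, 1.26) lie at the ends. Control 2 and Mutant 3 lie low in the gamma level and slightly below 0 in the type I level.

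The genes of a class were compared over the 8 tumours by Pearson's r, given as a description because all values share the same 8 arrays. The 28 pairs of gamma genes had r from 0.91 to 1.00 with a median of 0.97. The 325 pairs of type I genes had r from -0.77 to 0.98 with a median of 0.74, and 300 were above 0. The 208 pairs across the classes had a median of 0.80, whereas members set against other genes had a median of 0.02. Of the 26 type I genes, 6 were more like the gamma level than the type I level: Stat2, Ifih1, Zbp1, Bst2, Parp14 and Trim30a. Irf1, Irf8 and Iigp1 were also nearer to the gamma level.

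Ifit2, Isg20 and Eif2ak2 were unlike the rest, with r to the type I level of -0.23, 0.40 and 0.45. Eif2ak2 encodes PKR, a kinase that halts translation when it binds double-stranded RNA. Several members are neighbours in the gene table of assembly GRCm38.p6. Igtp and Irgm2, with no protein-coding gene between them, had r of 1.00, and Oas2 and Oas3, also adjacent, had 0.94. Ifit2 and Ifit3 are adjacent too, with r of -0.09, while Ifit1 and Ifit3, with 3 genes between them, had 0.96. The neighbouring Gbp2, Gbp3, Gbp5 and Gbp7 had r from 0.95 to 0.99.

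Of the members, 13 had more than 1 probe that passed the brightness filter, with 16 further probes in all. Of these further probes, 11 gave a difference of the same sign as the probe used and 5 the opposite sign, which belonged to Irf1, Stat2 and Ddx58. Their r to the probe used had a median of 0.90, and the lowest, 0.40, was that of a probe for Xaf1 whose difference was 1.29. Probe sequences were not used here, so signal from near-identical copies of the Ifit, Oas, Gbp and Irg genes cannot be told apart from that of the member named.

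Upstream of these genes, 10 of 20 interferon genes listed were measured, 3 with a difference above 0 and 7 below (median -0.04). At an unadjusted p under 0.05 in limma there were 0 of 10, beside 2.91% of all genes. A further 7 were matched but too dim to be tested, among them Ifnb1, which was well above background on 2 arrays. Ifng, which encodes gamma interferon, had a level of -4.84, -5.49, -1.54 and -1.81 in Controls 1 to 4 and -2.80, -1.36, -4.87 and -1.92 in Mutants 1 to 4. It was well above background on all 8 arrays and spanned 17.4-fold, and Controls 1 and 2 and Mutant 3 were its low tumours, the same 3 as for the gamma genes. Its difference was 0.68 (SE 1.12), with an exact permutation p of 0.657, and it was 3.08 in row 1 and -1.72 in row 2. Ifnk differed by 0.54 (SE 0.29), Ifna11 by -0.56 (SE 0.34) and Ifna14 by -0.16 (SE 0.14). None passed an adjusted p under 0.05 in limma, and all were dim. Their levels were -4.46 to -2.89 for Ifnk, -3.74 to -2.25 for Ifna11 and -4.19 to -3.69 for Ifna14. For Ifna11, Controls 1 and 4 had -2.54 and -2.25, beside -3.74 to -3.52 in the other tumours.

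The 6 receptor genes gave 4 differences above 0 and 2 below, with a median of 0.01. Ifnlr1, a chain of the lambda interferon receptor, differed by 0.99 (SE 0.54), Ifngr1 by 0.25 (SE 0.21) and Ifnar2 by -0.06 (SE 0.14). Of the 5 JAK-STAT signal transducers, 3 lay above 0 and 2 below, with a median of 0.06. Jak2 differed by -0.37 (SE 0.26) and Stat3 by 0.11 (SE 0.13), and neither had its low values in the low tumours of the gamma genes.

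Of the 8 negative regulators, 4 lay above 0 and 4 below, with a median of 0.02, and 1 had an unadjusted p under 0.05. This was Ptpn1, a phosphatase that acts on Jak2 and Tyk2, at 4.08, 4.14, 4.13 and 4.24 in Controls 1 to 4 and 4.40, 4.35, 4.37 and 4.35 in Mutants 1 to 4. Its groups did not overlap, its difference was 0.22 (SE 0.09), and its unadjusted p was 0.0326 in limma and 0.0286 in the exact permutation test, the smallest that test can give. It did not pass an adjusted p under 0.05. Over all genes, 1.42% had groups that did not overlap and 2.91% had an unadjusted p under 0.05 in limma. Socs3 differed by 0.19 (SE 0.18) and Pias4 by -0.17 (SE 0.12). Of 17 genes that sense nucleic acid upstream of interferon, 14 lay above 0 and 3 below, with a median of 0.09 and 0 at an unadjusted p under 0.05 in limma. Ikbke differed by 0.32 (SE 0.15), Sting1 by 0.23 (SE 0.15) and Aim2 by 0.20 (SE 0.13).

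Other targets of the pathways were listed apart from the members. The 42 other type I targets measured had 35 differences above 0 and 7 below, with a median of 0.21, beside 52.4% of all genes above 0. Their median was 0.62 in row 1 of the slide and -0.25 in row 2, where 12 lay above 0 and 30 below. At an unadjusted p under 0.05 in limma there was 1 of 42, beside 2.91% of all genes. This was Ly6e, a membrane protein that limits virus entry, with 0.44 (SE 0.16), an unadjusted p of 0.0275 in limma and an exact permutation p of 0.0571. Uba7, which starts the attachment of Isg15, differed by 0.27 (SE 0.13), and Lgals9 by 0.26 (SE 0.14). The 23 other gamma targets measured had 21 above 0 and 2 below, with a median of 0.52, and 0 at an unadjusted p under 0.05 in limma. Within row 1 all 23 lay above 0, with a median of 1.77. Within row 2, 1 lay above 0 and 22 below, with a median of -0.86, so the direction did not hold within both rows. Ifi47, another immunity-related GTPase, differed by 0.74 (SE 0.54), F830016B08Rik by 0.16 (SE 0.12) and Nos2, the inducible nitric oxide synthase, by -0.41 (SE 0.28).

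The mean level of these other gamma targets was -1.39, -1.31, 1.08 and 0.67 in Controls 1 to 4 and 0.19, 0.81, -0.72 and 0.67 in Mutants 1 to 4. It was lowest in Controls 1 and 2 and Mutant 3, as the gamma members were. Cxcl9, a chemokine that draws T cells, was named after its values were seen and spanned 24.0-fold, with a level of 0.16, -0.27, 4.32 and 2.61 in Controls 1 to 4 and 2.83, 3.85, 0.81 and 4.01 in Mutants 1 to 4. Its difference was 1.17 (SE 1.15), with an exact permutation p of 0.371.

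T cells and natural killer cells are the main sources of gamma interferon, and the mean levels of their markers were low in the same tumours as the gamma genes. For the 6 T cell markers measured of 7 listed, the mean level was -0.48, -1.60, 0.58 and 0.95 in Controls 1 to 4 and 0.39, 0.50, -0.78 and 0.45 in Mutants 1 to 4. For the 5 natural killer and cytotoxic markers measured of 7, it was -0.97, -1.90, 0.88 and 1.02 in Controls 1 to 4 and 0.39, 1.01, -0.84 and 0.40 in Mutants 1 to 4. In both lists the 3 lowest means were those of Controls 1 and 2 and Mutant 3. The same 3 tumours were lowest for 4 of 6 T cell markers (not for Cd247 and Cd4) and for 4 of 5 cytotoxic markers (not for Prf1), beside all 8 gamma genes, 13 of 26 type I genes and 5.23% of all genes. Between the groups, 0 of these markers had an unadjusted p under 0.05 in limma, beside 2.91% of all genes. Summed on a linear scale relative to the 75th percentile, T cell markers ranged from 5.55 to 13.4 in Control and from 6.87 to 9.40 in Mutant tumours, and the cytotoxic markers from 0.44 to 3.76 and from 0.91 to 3.56. Their part in the result was not tested. In whole tumours, fewer cells of a type and less RNA per cell cannot be told apart.

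**Figure D4:**
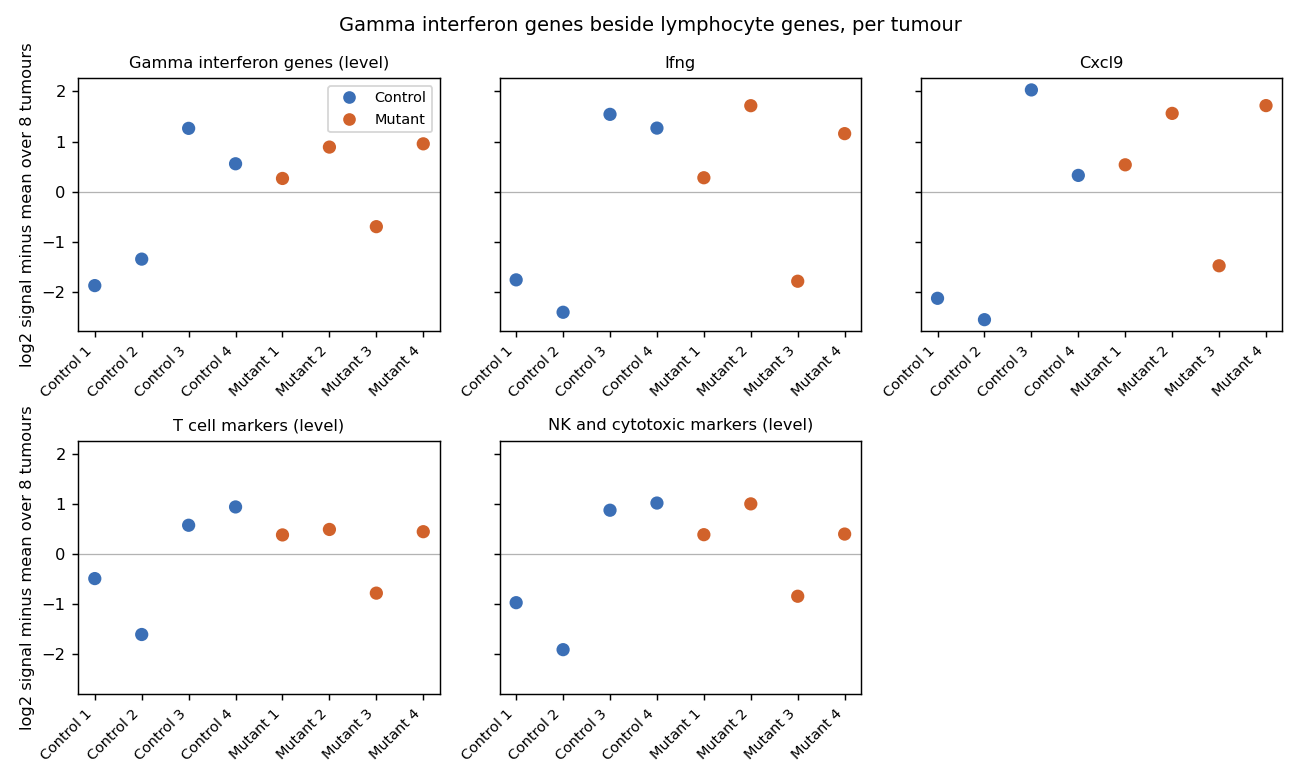
Gamma level of each tumour beside those of Ifng, Cxcl9, the T cell markers and the natural killer and cytotoxic markers, all as log2 signal minus the mean over the 8 tumours; each point is 1 tumour, coloured by host group. Controls 1 and 2 and Mutant 3 are the lowest tumours in each of the 5 panels.

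Other cell types varied as well. The 9 macrophage and monocyte markers, all measured, had 7 differences above 0 and 2 below, with a median of 0.10, and summed levels of 121 to 296 in Control and 161 to 280 in Mutant tumours. Their mean level was -0.52, -0.47, -0.14 and 0.78 in Controls 1 to 4 and 0.54, 0.42, -0.66 and 0.06 in Mutants 1 to 4. Its 3 lowest tumours were again Controls 1 and 2 and Mutant 3, which were also the lowest for 2 of the 9 markers singly. The 5 plasmacytoid dendritic cell markers measured of 6, from the cells that make most type I interferon, had 4 differences above 0 and 1 below, with a median of 0.35, and summed levels of 167 to 213 and 176 to 197. Most of the sum was Siglech, whose level of 7.37 to 7.73 spanned only 1.28-fold. The largest difference was that of Cox6a2, 1.56 (SE 0.71), which was highest in Mutant 2, where the skeletal muscle level was also highest. Of the 6 conventional dendritic cell markers, Xcr1 was well above background on no array, and the other 5 had a median difference of 0.08. The 5 neutrophil markers measured of 6 had 4 differences above 0 and 1 below, with a median of 0.92. At an unadjusted p under 0.05 in limma there was 1, Mmp8 with 1.02 (SE 0.35), beside 2.91% of all genes. All 5 were lowest in Control 4, where their mean level was -2.01, beside -0.05 to 0.69 in the other tumours. Within row 1 S100a8 differed by -0.52, S100a9 by -0.27, Csf3r by -0.18, Cxcr2 by -0.72 and Mmp8 by 0.99. The 7 skeletal muscle markers all read higher in Mutant tumours, with a median difference of 2.90. Of these, 5 had an unadjusted p under 0.05 in limma, beside 2.91% of all genes. The part of these cell types in the members' values was not tested.

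Outside the members and lists, the genes most like the type I level over the 8 tumours by Pearson's r were Acod1 (0.98), Oas1f (0.97), Ccnc (0.96), Rpp25l (0.96) and Tmprss6 (0.95). Those most like the gamma level were Gm12185 (0.99), H2-D1 (0.98), Tapbp (0.98), B2m (0.98) and Gm12250 (0.97). Gm12185 was well above background on 5 arrays and Tmprss6 on 7, and Rpp25l and Ccnc spanned only 1.29-fold and 1.67-fold. H2-D1 is a class I heavy chain, B2m the light chain, and Tapbp a factor of peptide loading. Among the 30 genes nearest to each level, 5 for type I and 12 for gamma stood on the pathway lists already.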

How the data were processed

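Total RNA of 8 whole tumours, from 4 Control and 4 Mutant mice, was hybridised to 1-colour Agilent mouse arrays after Cy3 labelling of 0.5 ug RNA, per the labels' protocols. Intensity values were made by the authors with Agilent Feature Extraction 10.7.3.1, per the file headers, while the submitters' processing notes name 9.1. The processed signal is a background-subtracted intensity that was deposited on a linear scale and not scaled between arrays. The authors' deposited value table equals it within 0.01% for 99.49% to 99.51% of probes, with column medians of 52.8 to 61.8, so its scale is linear, with no centring and no direction. The authors also deposited quality flags, which have no unit (other).

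Control spots and outlier spots were left out, spots of a probe averaged, and log2 signals centred on each array's 75th percentile. A probe was kept if it stood well above background on 4 or more of the 8 arrays (36824 probes). Unversioned RefSeq accessions, looked up in a table for GRCm38.p6, named 1 gene for 32994 of 56605 probes and none for 23611. Coordinates are left out because the array was designed on a different assembly. Each gene took its probe of highest mean. Groups were compared in limma 3.58.1 (R 4.3.3) with Benjamini-Hochberg adjustment over 16068 genes, and single genes by a two-sided exact permutation test over 70 arrangements. On simulated data for this comparison (16050 genes, 200 changed, 20 draws), the fit recovered 47.1% of 2-fold and 78.4% of 4-fold changes, with 5.46% false calls. The changed genes were drawn from all genes, whose median SD within a group was 0.27. That SD was 0.78 for the members and 1.30 for the gamma genes, so these rates do not hold for them. Recovery among the members was not simulated.

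Members, classes and lists were chosen with earlier results of these data known. Genes named were, by rule, the 8 type I and 5 gamma members of smallest p, the 2 of highest mean and the 2 of widest range in each class, Irf1, Irf8 and Iigp1, and the 3 genes of smallest p in each pathway list. The exceptions are stated where they occur, and 1 gene that the rule names is not reported here. Ifng was named as the ligand. The alternatives tried were other centring, quantile normalization, normexp background (offset 50, on median spot and background signals), other filters and probe rules, the deposited table, a robust variance trend in limma, slide row or replicate number as a block, and each tumour left out.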

Additional observations from a re-analysis of the deposited data

Results flagged for a closer look

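Among 80 groups of 4 tumours examined, 2 held a tumour far from the other 3, and chance alone gives about 1 in 20. For Xaf1, Mutant 3 had a level of 1.06 while the other Mutant tumours lay between 1.59 and 1.61, a gap of 0.960 of the group's range. For Bst2, Mutant 3 had a level of 2.82 while the others lay between 3.99 and 4.11, a gap of 0.903 of the range.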

How the results depend on the processing

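No member passed an adjusted p under 0.05 in limma under any of 18 other ways of processing. At an unadjusted p under 0.05 in limma, fitted across all genes, the count of members was 0, except for 1 without Control 3 (Ifi44, 0.0239) and 1 without Control 4 (Isg20, 0.0285). The count of all genes at an unadjusted p under 0.05 was 467, and leaving out 1 tumour gave 195 (without Mutant 1) to 972 (without Control 2). The type I median was 0.06 to 0.08 and the gamma median 0.69 to 0.77 with all tumours kept, and leaving out 1 tumour gave -0.17 to 0.33 and 0.21 to 1.34. The difference in gamma minus type I level was 0.54 to 0.64, and 0.32 to 0.92 with 1 tumour left out. The within-row values, an alternative added after seeing the data, were 2.30 and -0.83 for the gamma median, 0.71 and -0.51 for the type I median and 1.49 and -0.24 for gamma minus type I.

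The replicate numbers did not pair the tumours: same-numbered tumours deviated with correlations of 0.08, -0.31, 0.05 and -0.31. With the replicate number as a block the type I median was 0.08, the gamma median 0.74 and the count of genes at an unadjusted p under 0.05 was 371.

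Of 37 members, 15 kept their sign under all 18, among them all 8 gamma genes, and 22 did not. The mean over a gene's probes turned Ddx58 to -0.072 and Stat2 to -0.071, and normexp turned Oas3 to -0.067. With 1 tumour left out, the differences ranged as follows: Bst2 from -0.32 to 0.28, Ddx58 from -0.15 to 0.26, Dhx58 from -0.22 to 0.31, Eif2ak2 from -0.18 to 0.11, Ifi35 from -0.034 to 0.27, Ifih1 from -0.18 to 0.49, Ifit1 from -0.31 to 0.69 and Ifit2 from -0.27 to 0.058. Ifit3 ranged from -0.11 to 0.73, Irf7 from -0.60 to 0.33, Irf8 from -0.050 to 0.50, Irf9 from -0.10 to 0.26, Isg15 from -0.47 to 0.67, Oas1a from -0.58 to 0.57, Oas2 from -0.71 to 0.72 and Oas3 from -0.56 to 0.64. Oasl1 ranged from -0.59 to 0.20, Parp14 from -0.019 to 0.42, Rsad2 from -0.81 to 0.15, Stat2 from -0.16 to 0.33, Usp18 from -0.78 to 0.27 and Xaf1 from -0.17 to 0.70. The cause was not tested. Oas3 has no value where all 8 arrays had to be well above background. The number of tumours and dim probes limit the precision.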

Other observations

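Tlr9, a sensor of DNA in endosomes, was not well above background in Control 1, and its level lay between 0.90 and 1.56 in the other 7 tumours. It was named after its values were seen.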
